A study of Mus musculus with 14 samples.

Results

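The Serpina3 genes Serpina3f, Serpina3g, Serpina3h, Serpina3m and Serpina3n stand close together on mouse chromosome 12, and their RNA was counted in the hippocampus of mice labelled LPAR2-/- and of WT mice. These 5 genes were selected on measured values, since most of them had been seen to differ between the genotypes in the same libraries. Their levels by genotype are therefore given as a description and without a test. The count table holds 24421 genes, of which 11 have a name starting with Serpina3, and the 5 members were all found among them. All 5 passed the filter on low counts that 14897 genes passed, but Serpina3f, Serpina3h and Serpina3m passed it only through the mice labelled LPAR2-/-, in which they are high.

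The libraries, 1 for each of 7 WT animals and 7 animals labelled LPAR2-/-, were made from total RNA depleted of ribosomal RNA. All animals were naive males of the strain labelled 129.C57Bl6. The targeted gene, Lpar2, codes for a receptor of lysophosphatidic acid, and its deletion removes part of exon 2. Knockout and control mice (C57BL/6 and 129/SvJ mixed) came from separate breeding lines rather than from shared litters, so that effects of the line and of the deletion cannot be told apart. Their age is not known, because the deposited description speaks of older mice than the 10 to 12 weeks of the labels. The labels name the hippocampus, whereas the study's results name the dentate gyrus, which is a part of it. Lpar2 went against the labels, since WT mice had 27 to 66 counts of Lpar2 (chromosome 8), whereas 144 to 234 were found in the mice labelled LPAR2-/-. All directions below refer to the libraries labelled LPAR2-/-. The libraries held between 15434620 and 23258949 counts in the mice labelled LPAR2-/- and between 16373410 and 21992980 in WT mice. The p-values measure the spread between mice of these colonies.

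Serpins are a family of proteins that mostly inhibit proteases. A protease that cuts the exposed reactive centre loop of a serpin is trapped, and the sequence of this loop sets which proteases are bound. Humans have a single SERPINA3 gene, coding for alpha-1-antichymotrypsin, a plasma protein of the acute phase, whereas in the mouse the locus has multiplied into a cluster of similar genes. In the brain, Serpina3n is made mainly by astrocytes and is widely used as a marker of reactive astrocytes, and Serpina3g is known from lymphoid and myeloid cells as an inhibitor of cathepsins.

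In mm10, the build of the counts, the 5 genes lie on the plus strand of chromosome 12. Serpina3f spans 104214544 to 104221129, Serpina3g 104214544 to 104241934 (as counted), Serpina3h 104247896 to 104254405, Serpina3m 104387164 to 104394257, and Serpina3n 104406708 to 104414329. The GENCODE release M21 annotation of the same build lists Serpina3h as a transcribed unprocessed pseudogene and the other 4 as protein coding. Since the loop differs more between these genes than their transcripts do as a whole, its bases are shown for each member from the GENCODE transcripts, 5′ to 3′. For Serpina3h this is the matching stretch of the pseudogene's transcript. The variable stretch is in capitals between the conserved bases of the hinge and of the tail in lower case.
Serpina3f chr12:104220245-104220337: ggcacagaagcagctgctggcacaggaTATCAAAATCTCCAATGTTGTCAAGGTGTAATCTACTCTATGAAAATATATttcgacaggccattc
Serpina3g chr12:104241072-104241161: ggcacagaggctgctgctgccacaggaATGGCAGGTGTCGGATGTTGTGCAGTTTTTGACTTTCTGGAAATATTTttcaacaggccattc
Serpina3h chr12:104253511-104253600: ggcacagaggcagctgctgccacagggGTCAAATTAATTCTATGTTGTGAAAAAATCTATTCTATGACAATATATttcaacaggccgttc
Serpina3m chr12:104393769-104393858: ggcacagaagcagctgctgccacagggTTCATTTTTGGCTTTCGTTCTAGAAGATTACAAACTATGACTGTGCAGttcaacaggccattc
Serpina3n chr12:104413448-104413537: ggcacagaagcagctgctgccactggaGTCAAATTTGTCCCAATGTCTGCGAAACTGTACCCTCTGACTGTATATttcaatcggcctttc
In every member the loop lies within 1 counted exon. The variable stretch has 51 bases in Serpina3f and 48 bases in each of the other genes. Compared with Serpina3n, 64.6% of its bases were identical in Serpina3h, 62.7% in Serpina3f, 52.1% in Serpina3m and 45.8% in Serpina3g. Over whole transcripts the genes were more alike, though gaps counted as differences in the loop only. Compared with Serpina3n, 85.9% of the aligned bases were identical in Serpina3h, 81.8% in Serpina3m (of 1635), 80.4% in Serpina3g and 79.3% in Serpina3f. The most alike pairs were Serpina3f and Serpina3h with 92.5% of 1225 aligned bases, Serpina3g and Serpina3h with 89.8% of 1093, and Serpina3f and Serpina3g with 88.4% of 1792.

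This likeness bears on the counts, because reads that matched several places or several genes were not counted. Of all windows of 50 bases along the transcript, 23.9% of those of Serpina3h, 19.1% of those of Serpina3m, 16% of those of Serpina3g, 10.7% of those of Serpina3f and 6.9% of those of Serpina3n also occur in the transcript of another gene. Windows of 100 bases are shared at 4.26%, 6.09%, 4.64%, 3.58% and 0.204%, in the same order. For Serpina3m the gene sharing most windows was Serpina3k, which had at most 1 count in any mouse. The counted exons of Serpina3f and Serpina3g overlap by 147 bases, 6.42% of the counted length of Serpina3f and 7.28% of that of Serpina3g, and reads within them were given to neither gene. The transcripts used hold 59.8% of the counted exon bases of Serpina3h, 85.7% of those of Serpina3g and at least 98.2% in the other members. By these windows the sharing is least for Serpina3n. How many reads of these paralogs were left out was not measured, so their counts are uncertain.

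Serpina3n, the most abundant member, was higher in every mouse labelled LPAR2-/- than in every WT mouse. Counts ranged from 2494 to 3598 (median 2817) in the mice labelled LPAR2-/- and from 1270 to 2116 (median 1527) in WT mice. Scaled to library size as CPM, the level was 152 ± 15.4 (SD, n = 7) against 84.7 ± 20.9 (SD, n = 7), which is 1.79-fold. The nearest mice of the groups were mouse 1 labelled LPAR2-/- with 128 CPM and WT mouse 7 with 118 CPM. WT mice varied more, with a coefficient of variation of 24.7% against 10.1%. The log2 fold change fitted across all genes was 0.84 (standard error 0.131).

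Serpina3m was counted only in the mice labelled LPAR2-/-. It had 98, 137, 155, 157, 127, 130 and 107 counts in mice 1 to 7 of this group and 0 counts in each of the 7 WT mice. A count of 0 allows up to 3 counts, which correspond to between 0.137 and 0.186 CPM in the WT libraries. In the mice with counts the level was 6.69 ± 0.822 CPM (SD, n = 7), at least 43-fold higher than this floor, taken per library at its mean of 0.155 CPM. With a coefficient of variation of 12.3% it varied about as little between the mice as Serpina3n.

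Serpina3f, a close relative of Serpina3g, was near 0 in WT mice. Counts were 57, 63, 58, 66, 60, 73 and 47 in mice 1 to 7 labelled LPAR2-/-. In WT mice 1 to 7 they were 11, 1, 1, 0, 1, 0 and 1, so that WT mouse 1 held 11 of the 15 counts of its group. The levels were 3.15 ± 0.583 CPM (SD, n = 7) and 0.103 ± 0.185 CPM (SD, n = 7), a ratio of the means of 30.5. Because of the few WT counts this ratio is loose: from the summed counts of 424 and 15 it was 28.2 with an exact 95% counting interval of 16.9 to 50.9, and without WT mouse 1, with 4 counts in 6 mice, it was 89.5 with an interval of 34.7 to 330. These intervals cover counting error only. The fitted log2 fold change was 4.76 (standard error 0.425) and 6.26 without WT mouse 1. The groups did not overlap with or without this mouse.

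Serpina3h, the annotated pseudogene, was low in both groups but did not overlap between them. It had 16, 22, 46, 49, 39, 9 and 13 counts in mice 1 to 7 labelled LPAR2-/- and 7, 6, 2, 2, 1, 1 and 8 counts in WT mice 1 to 7. The lowest mouse labelled LPAR2-/- had 0.537 CPM and the highest WT mouse 0.467 CPM, a difference of very few reads. On average there were 1.35 ± 0.676 CPM (SD, n = 7) and 0.198 ± 0.161 CPM (SD, n = 7), a ratio of 6.85, with a fitted log2 fold change of 2.76 (standard error 0.435). Mice 3, 4 and 5 labelled LPAR2-/- were high and the other 4 of the group were lower, so that the coefficient of variation reached 50%.

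Serpina3g stood apart, because its groups overlapped and its difference had no settled sign. Counts were 33, 23, 30, 34, 29, 15 and 12 in mice 1 to 7 labelled LPAR2-/-, and 20, 59, 31, 21, 6, 6 and 53 in WT mice 1 to 7. Both the highest and the lowest mice were thus WT mice. The level was 1.26 ± 0.337 CPM (SD, n = 7) against 1.43 ± 1.09 CPM (SD, n = 7). The fitted log2 fold change was −0.17 (standard error 0.414), whereas the difference of the mean log2 CPM was 0.15, of the opposite sign. The spread was wider in WT mice. The highest WT mouse had 10.5 times the CPM of the lowest, against 2.2 times among the mice labelled LPAR2-/-, and the coefficients of variation were 76.3% and 26.8%.

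In all, 4 of the 5 members, namely Serpina3f, Serpina3h, Serpina3m and Serpina3n, had groups that did not overlap, with WT mice lower. In this direction 0.866% of the 14897 genes tested did so. The same 4 members were among the 3.32% of genes that passed an adjusted p of 0.05 with higher values (6.77% in either direction). Since this contrast chose the members, nothing is read from these counts.

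**Figure D1:**
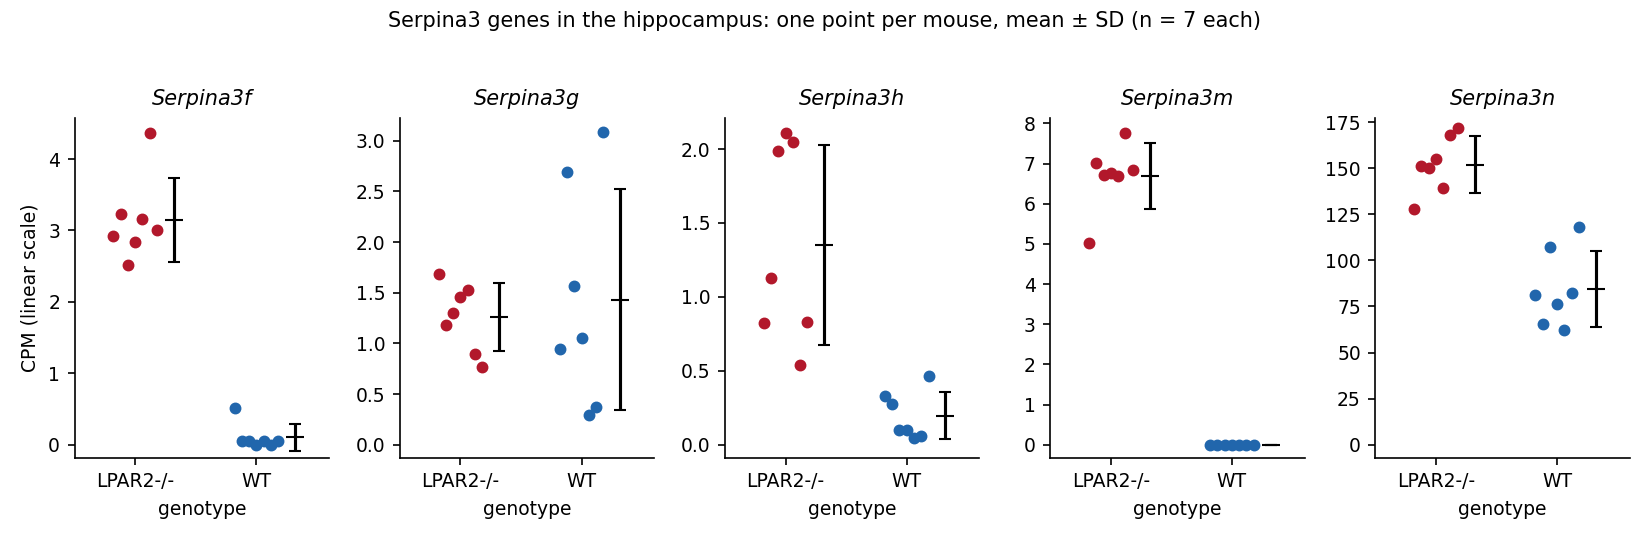
Level of each member in CPM on linear axes that differ between panels, 1 point per mouse, with red points for mice labelled LPAR2-/- and blue points for WT mice, placed by mouse number, and the mean ± SD (n = 7) in black. Serpina3f, Serpina3h, Serpina3m and Serpina3n do not overlap between the groups, Serpina3m is 0 in every WT mouse, and Serpina3g overlaps with a wider spread among WT mice.

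Divided by gene length (RPKM), the members can be ranked within a genotype. In the mice labelled LPAR2-/-, Serpina3n had the highest level with 72.8 ± 7.38 RPKM (SD, n = 7), followed by Serpina3m with 4.03 ± 0.496 and Serpina3f with 1.37 ± 0.255. Serpina3h with 0.66 ± 0.33 and Serpina3g with 0.624 ± 0.167 RPKM came last and did not differ beyond their spread. In WT mice Serpina3n again led with 40.6 ± 10 RPKM, and Serpina3g followed with 0.708 ± 0.54. Serpina3h with 0.0963 ± 0.0784 and Serpina3f with 0.0451 ± 0.0809 RPKM were within each other's spread, and Serpina3m was at 0. Serpina3m and Serpina3f were thus above Serpina3g in one genotype and below it in the other.

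The make-up of the cluster's RNA shifted accordingly. All 11 Serpina3 genes together had 86.9 ± 21.6 CPM (SD, n = 7) in WT mice and 165 ± 15.8 CPM (SD, n = 7) in those labelled LPAR2-/-, a ratio of 1.9. Without Serpina3n the sums were 2.17 ± 1.32 and 13.1 ± 1.2 CPM, a ratio of 6.01. Serpina3n made up 92% of the cluster's counts in the mice labelled LPAR2-/- (range 90.7% to 93.4%) and 97.5% in WT mice (95.1% to 99.2%). Serpina3m took 4.05% (3.62% to 4.36%) in the mice labelled LPAR2-/- and none in WT mice. Serpina3f took 1.91% and 0.123%, Serpina3h 0.834% and 0.221%, and Serpina3g 0.787% and 1.61%, each as mean over the mice labelled LPAR2-/- and over WT mice.

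**Figure D2:**
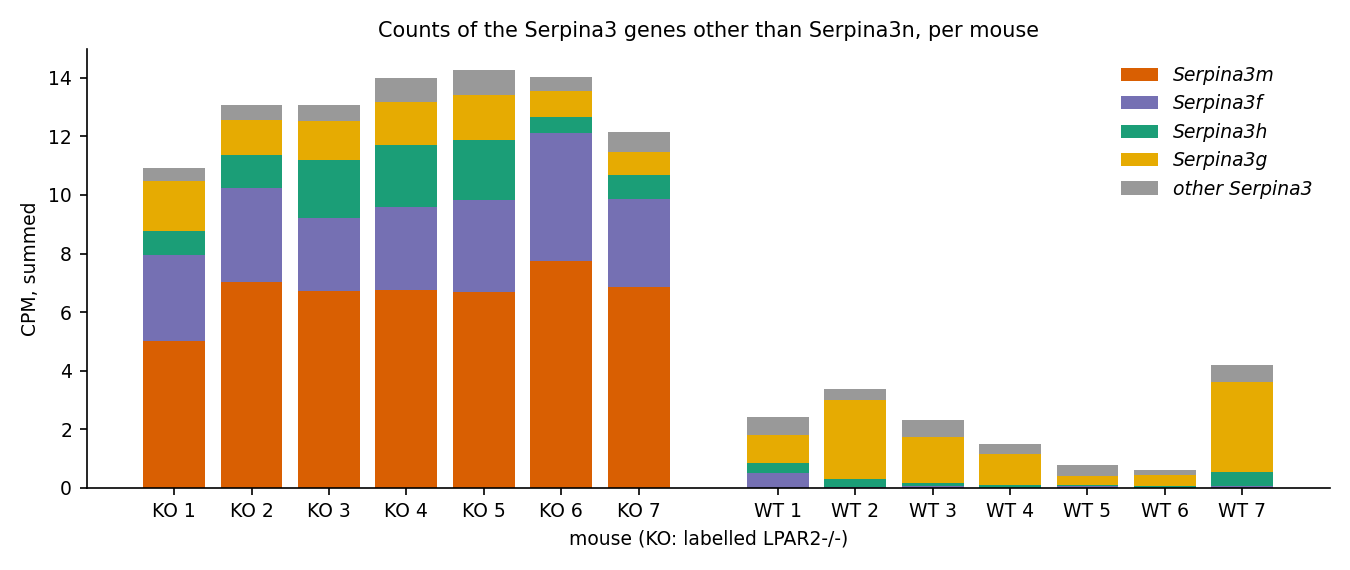
CPM of the Serpina3 genes other than Serpina3n, stacked for each mouse (KO, labelled LPAR2-/-). The sums lie between 10.9 and 14.3 CPM in the mice labelled LPAR2-/-, where Serpina3m and Serpina3f form most of the bar, and between 0.62 and 4.2 CPM in WT mice, where Serpina3g forms the largest part except in mouse 5.

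The other 6 Serpina3 genes of the table were near 0 and did not pass the filter. Serpina3c had 3 to 12 counts in WT mice and 5 to 10 in the mice labelled LPAR2-/-. Serpina3i had 0 to 5 and 1 to 8 counts, respectively. Serpina3a, Serpina3b and Serpina3k had at most 1 count in any mouse, and Serpina3j had none, which allows up to 3 counts per library. Serpina3i, which lies next to Serpina3h and is the gene that shares most 50-base windows with it, thus had few counts in mice with up to 49 counts of Serpina3h.

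Whether the members vary together within a genotype does not depend on how they were chosen. The log2 CPM of each pair was correlated after removal of the genotype means, and for pairs with Serpina3m over the 7 mice labelled LPAR2-/-, with permutation tests (exact for n = 7) for 10 pairs. No pair passed the adjusted threshold of 0.05. Serpina3g and Serpina3h came closest over 14 mice (Pearson r = 0.66, permutation p = 0.0125, adjusted p = 0.094, Spearman rho = 0.57, permutation p = 0.0484, adjusted p = 0.161). The coefficient was 0.57 within the mice labelled LPAR2-/- and 0.78 within WT mice, and 0.48 without the 2 mice farthest from the median of Serpina3g. The WT mice had 1 to 8 counts of Serpina3h and 6 to 59 of Serpina3g. Coefficients over 14 mice and within WT mice thus rest partly on values near the floor. These genes also share more 50-base windows with each other than Serpina3g does with any other gene. Serpina3m and Serpina3n had r = 0.81 over the 7 mice labelled LPAR2-/- (exact permutation p = 0.0188, adjusted p = 0.094, rho = 0.82, exact permutation p = 0.0341, adjusted p = 0.161), which fell to 0.39 without the 2 farthest mice and so rests on those. Serpina3g and Serpina3m ran in opposite directions over the same mice (r = −0.65, exact permutation p = 0.104, adjusted p = 0.347, rho = −0.86, exact permutation p = 0.0238, adjusted p = 0.161). For Serpina3g and Serpina3n, r was 0.32 over 14 mice (permutation p = 0.414, adjusted p = 0.794, rho = −0.2). It was −0.91 within the mice labelled LPAR2-/- and 0.49 within WT mice. For Serpina3f and Serpina3h, r was 0.25 over 14 mice (permutation p = 0.514, adjusted p = 0.794). It was −0.69 within the mice labelled LPAR2-/- and 0.53 within WT mice, which had few counts of both genes. These differences between the genotypes were not tested.

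**Figure D3:**
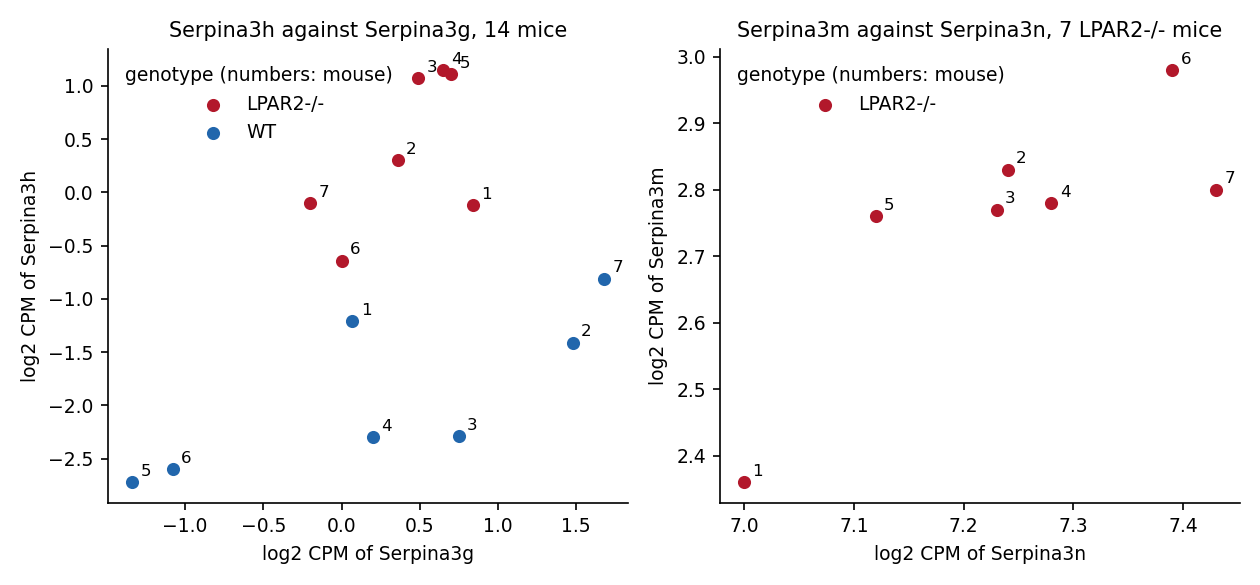
Log2 CPM of Serpina3h against Serpina3g in 14 mice (left) and of Serpina3m against Serpina3n in the 7 mice labelled LPAR2-/- (right), 1 point per mouse with its number, red for mice labelled LPAR2-/- and blue for WT mice. In the left panel mice with more Serpina3g tend to have more Serpina3h within each colour (r = 0.57 and 0.78), and in the right panel mouse 1 lies far below the others. The WT points of the left panel rest on 1 to 8 counts of Serpina3h.

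Only Serpina3n had at least 10 counts in every mouse, and its pattern was compared with that of other genes. Among 14081 genes with a mean of at least 1 CPM, those most like it over 14 mice, after removal of the genotype means, included Pars2 (r = 0.79), Cog8 (0.78), Dhdds (0.78) and Cnih2 (0.78). These values are the highest of many and are a description. None of these 4 genes is a serpin or a listed gene of reactive astrocytes.

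Sequences in front of the genes are available from RefSeq (GRCm38.p6, the same build) for 3 of the 5 members, Serpina3f, Serpina3g and Serpina3n. The listed start of Serpina3g lies apart from its first counted exon, so the 250 bases before the start are shown for Serpina3f and Serpina3n only, 5′ to 3′ on the plus strand. Both were higher in the mice labelled LPAR2-/-, and capitals mark the longest run of bases that they share. As counted, however, Serpina3g starts at the same base as Serpina3f, 104214544. The window shown for Serpina3f thus also precedes the counted start of Serpina3g, whose groups overlapped.
Serpina3f chr12:104214294-104214543: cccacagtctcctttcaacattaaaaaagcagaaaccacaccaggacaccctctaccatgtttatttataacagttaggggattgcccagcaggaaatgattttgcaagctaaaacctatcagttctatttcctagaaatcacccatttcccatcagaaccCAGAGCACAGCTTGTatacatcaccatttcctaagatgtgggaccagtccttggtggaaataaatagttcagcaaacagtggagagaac
Serpina3n chr12:104406458-104406707: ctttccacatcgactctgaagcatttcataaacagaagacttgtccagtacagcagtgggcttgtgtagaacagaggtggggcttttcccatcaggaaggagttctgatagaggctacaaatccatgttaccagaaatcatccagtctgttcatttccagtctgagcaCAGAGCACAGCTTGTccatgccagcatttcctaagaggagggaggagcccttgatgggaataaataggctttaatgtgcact
The shared run, CAGAGCACAGCTTGT, begins 89 bases before the start of Serpina3f and 82 bases before that of Serpina3n. Searched on both strands, it occurs in 5 of 32851 such windows (0.0152%), all of them of Serpina3c, Serpina3f, Serpina3i and Serpina3n. Of these, Serpina3c and Serpina3i were near 0 in both groups. Over all aligned bases the windows of Serpina3f and Serpina3n were 67.1% identical, those of Serpina3f and Serpina3g 82.9% over the 152 bases that could be aligned. The motif TTCNNNGAA, the letters that STAT factors of the acute phase bind, was found in the windows of Serpina3f, Serpina3g and Serpina3i, not in these 250 bases of Serpina3n, and in 7.02% of all windows, searched on both strands.

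Genes related to the members by family or function were compared between the genotypes with edgeR's quasi-likelihood test, with p adjusted over all 14897 genes, of which 6.77% passed. Of 14 other clade A serpins in the table, such as the alpha-1-antitrypsin genes Serpina1a to Serpina1e, none passed the filter on low counts, the highest value being 10 counts of Serpina1b in 1 mouse. Of 24 serpins of other clades 15 were tested, and 0 passed by edgeR, with 3 at an unadjusted p under 0.05 (22.4% of all genes tested) and 1, Serping1, passing by DESeq2 (8.6% of all genes tested by it). Unadjusted, 5 of the 22 proteases, 7 of the 32 reactive astrocyte genes and 6 of the 30 acute phase regulators described next were under 0.05 by edgeR. The median log2 fold change of the 15 tested serpins of other clades was 0.01, against 0.003 for all genes tested. Serping1, the inhibitor of complement C1, had 15.2 ± 5.19 and 9.57 ± 3.6 CPM (SD, n = 7 each), and its log2 fold change was 0.67 (adjusted p = 0.129 by edgeR). Serpind1, heparin cofactor II, had 4 ± 2.83 and 1.5 ± 1.57 CPM (log2 fold change 1.4, adjusted p = 0.162 by edgeR).

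Among 22 tested proteases 2 were higher and none lower (9.09%), and the list's median was 0.08 on the log2 scale. Plau, the urokinase-type plasminogen activator, rose from 1.59 ± 0.414 to 3.23 ± 0.868 CPM (SD, n = 7 each; log2 fold change 1.01 with a standard error of 0.206 and an adjusted p = 0.00865 by edgeR). Ctsa, a lysosomal carboxypeptidase, rose from 118 ± 6.33 to 133 ± 3.88 CPM without overlap (log2 fold change 0.17, adjusted p = 0.0137 by edgeR). Both still passed when any 1 mouse was removed (14 fits). Htra1, a secreted serine protease, was named after its values were seen, because it passed as lower by DESeq2 but not by edgeR over all mice (log2 fold change −0.31, adjusted p = 0.0611 by edgeR). By edgeR it passed without mouse 3 or 4 labelled LPAR2-/- or WT mouse 1.

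Reactive astrocyte genes were examined because Serpina3n is one of their markers. Of 38 listed genes 32 were tested, and 2 passed (6.25%), both higher, while 23 of the 32 had positive log2 fold changes and the median was 0.23. The 2 genes were H2-T23 (log2 fold change 0.60, adjusted p = 0.0369 by edgeR) and H2-D1 (0.51, adjusted p = 0.0375 by edgeR), which code for major histocompatibility complex class I molecules. Their calls depended on single mice. H2-T23 passed in 6 and H2-D1 in 5 of the 14 fits without 1 mouse, with adjusted p up to 0.0802 and 0.084. H2-T23 lost its call without any 1 of mice 1, 4, 5 and 6 labelled LPAR2-/- and WT mice 2, 3, 5 and 7, and H2-D1 without any 1 of mice 1, 2, 4 and 5 labelled LPAR2-/- and WT mice 2, 4, 5, 6 and 7. Gfap and Vim, the classical filament genes of reactive astrocytes, were chosen for naming after their values had been seen. Gfap had 386 ± 46.9 CPM in WT mice and 377 ± 57.6 in those labelled LPAR2-/- (SD, n = 7 each, log2 fold change −0.03, adjusted p = 0.884 by edgeR), and Vim 47 ± 12.7 and 64.8 ± 18.3 CPM (log2 fold change 0.47, adjusted p = 0.175 by edgeR).

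Of 30 tested regulators of the acute phase and interferon responses (cytokines, receptors, signalling proteins and transcription factors) 1 passed (3.33%), and the median log2 fold change was 0. Cebpd, which codes for a transcription factor of the acute phase, rose from 12.6 ± 1.65 to 16.3 ± 2.21 CPM (SD, n = 7 each, log2 fold change 0.37, adjusted p = 0.0268 by edgeR). It passed in 10 of the 14 fits without 1 mouse, and not without mouse 4 labelled LPAR2-/- or WT mouse 2, 3 or 5 (adjusted p up to 0.062).

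**Figure D4:**
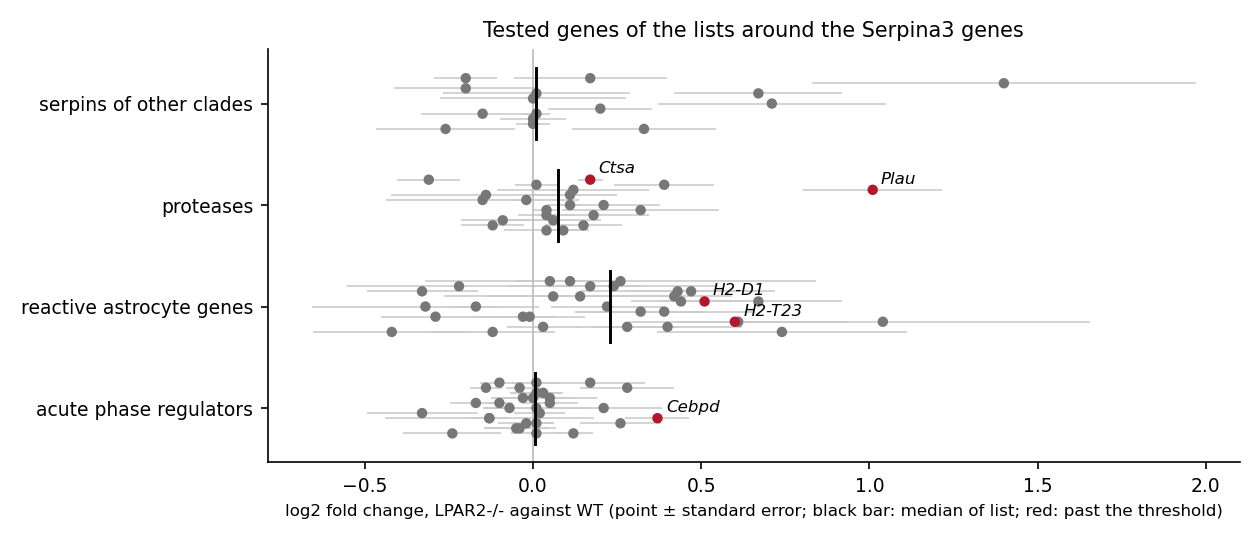
Log2 fold change (labelled LPAR2-/- against WT, point ± standard error) of each tested gene of 4 lists, red where the adjusted p is under 0.05, with the median of the list as a black bar. The medians are 0.01, 0.08, 0.23 and 0 from top to bottom, and Plau, Ctsa, H2-T23, H2-D1 and Cebpd are the genes that passed.

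The genes around the cluster share its stretch of chromosome 12. Within 1 Mb of the span of the members, 14 genes were tested, of which 1 was higher and 1 lower (14.3%, against 7.32% of 533 genes tested on chromosome 12). Ppp4r4, a regulatory subunit of protein phosphatase 4 and the nearest tested gene on one side at 600.7 kb, was lower without overlap of the groups (log2 fold change −0.18, adjusted p = 0.0099 by edgeR), and passed in all 14 fits without 1 mouse. Dicer1, which codes for the nuclease that processes microRNAs and is the nearest tested gene on the other side at 273.4 kb, was at a log2 fold change of 0 (adjusted p = 0.981 by edgeR). Asb2, which codes for a subunit of a ubiquitin ligase and lies 858.5 kb away, was higher (log2 fold change 0.87, adjusted p = 0.0438 by edgeR), but passed in only 4 of the 14 fits without 1 mouse (adjusted p up to 0.0977), namely not without any 1 of mice 1, 3, 4, 5, 6 and 7 labelled LPAR2-/- and WT mice 2, 3, 5 and 6. Within 5 Mb 3 of 65 tested genes passed (4.62%), and within 10 Mb 6 of 136 (4.41%).

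**Figure D5:**
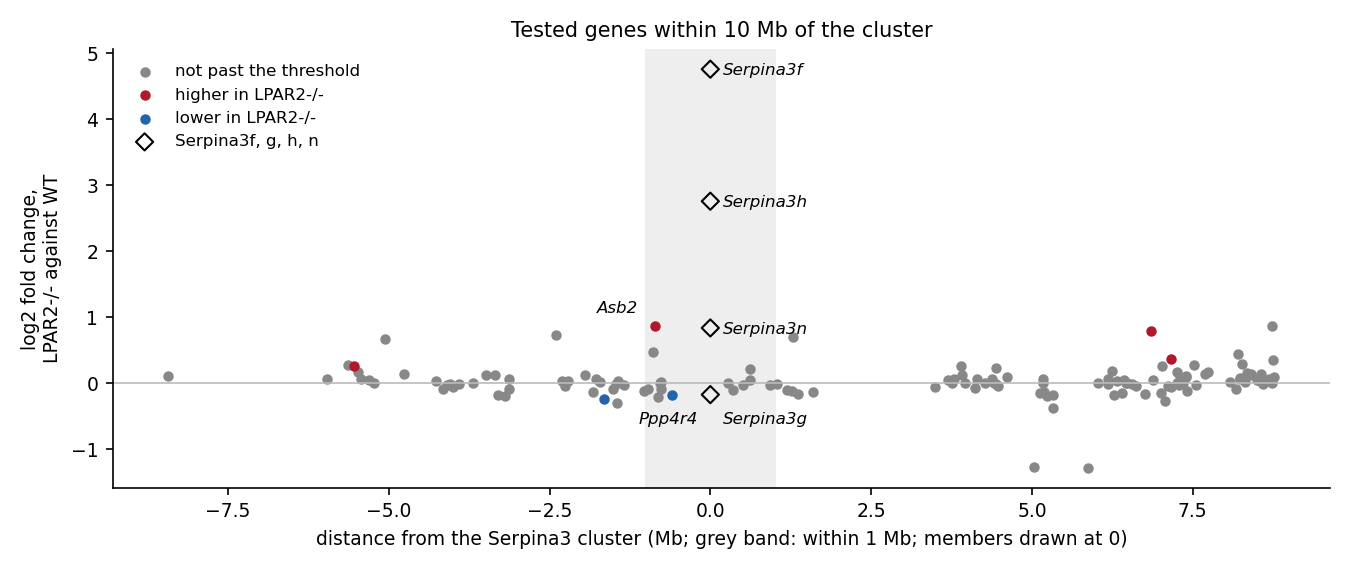
Log2 fold change (labelled LPAR2-/- against WT) of the tested genes within 10 Mb of the cluster against their distance from it in Mb, grey where not past the threshold, red higher, blue lower. Black diamonds at 0 are the fitted values of Serpina3f (4.76), Serpina3h (2.76), Serpina3n (0.84) and Serpina3g (−0.17), while Serpina3m is not drawn, because with 0 counts in every WT mouse its fitted value depends on the prior count.

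The cell content of the libraries was described with 10 lists of markers, each compared by an exact two-sided permutation test of its mean log2 CPM. No list passed after adjustment over the 10 lists. Calls of single markers stand beside the 6.77% of all 14897 genes tested that passed in either direction, and nothing is read from them. In these bulk samples fewer cells of a type and less RNA per cell cannot be told apart. Astrocytes are known as the main source of Serpina3n in the brain. All 10 astrocyte markers were tested and none passed on its own. Their sums were between 4770 and 5530 CPM in the mice labelled LPAR2-/- and between 4830 and 5590 in WT mice (difference of mean log2 CPM −0.06, exact permutation p = 0.323, adjusted p = 0.643). After removal of genotype means, the mean log2 CPM of this list correlated with Serpina3n at r = 0.08. Over the 10 lists r ranged from −0.15 to 0.23, and these values were not tested. Of the 10 meningeal markers 1 was higher on its own, and their sum was between 119 and 524 CPM (median 313) in the mice labelled LPAR2-/- and between 99.7 and 393 (median 165) in WT mice (difference 0.87, exact permutation p = 0.0466, adjusted p = 0.214). The 10 markers of the choroid plexus summed to between 30.9 and 298 CPM and between 32 and 39 CPM (difference 0.66, exact permutation p = 0.046, adjusted p = 0.214), the highest value belonging to mouse 2 labelled LPAR2-/-, without which the difference was 0.36. Of the 6 oligodendrocyte precursor markers 1 was lower on its own, with a difference of −0.15 for the list (exact permutation p = 0.0641, adjusted p = 0.214). The part of meningeal and plexus tissue and of these precursors in the levels of the Serpina3 genes was not tested. The list of blood and plasma markers summed to between 7.4 and 10.8 and between 7.13 and 9.85 CPM, with all 4 hemoglobin genes at 0 counts. The 10 markers of hippocampal neurons were all tested and summed to at least 8280 CPM in each mouse.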

How the data were processed

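Total RNA of the hippocampus (rRNA removed) was sequenced by the authors. According to the submitters' notes and the file header, reads went through cutadapt 1.18, STAR (mm10) and featureCounts 1.6.3, which counted exons by gene on the reverse strand. The deposited counts are not normalized and hold reads assigned to 1 gene. Multi-mapping and multi-overlapping reads were left out, which lowers counts of paralogs. The deposited gene length (other) gave RPKM. A deposited normalized table (DESeq2 1.22.2) was not used. Every count column belonged to 1 sample (0 others).

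With edgeR 4.0.16 (R 4.3.3), genes passing filterByExpr were normalized by TMM, and the robust quasi-likelihood test compared 7 against 7 mice without covariates, Benjamini-Hochberg adjusted p under 0.05. CPM use TMM-scaled sizes of tested genes, log2 CPM a prior count of 2. List members and relations were tested as given above, with 100000 permutations or exact ones. Replicates were not copies (chi-square of at least 3.35 per degree of freedom in 42 pairs). The procedure was tested on simulated data. Transcripts came from GENCODE M21, promoters from RefSeq, aligned with Biopython 1.88.

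The members and lists were chosen with earlier results of these data known. Named are the members, other Serpina3 genes, per list up to 4 genes past the threshold with the largest change or else the 2 with the smallest p, the 5 genes most like a member with at least 10 counts in every mouse (1 is not reported here), and neighbours that are nearest or past the threshold within 1 Mb. Alternatives were DESeq2 1.42.0, DESeq2 size factors, the upper quartile, no filter, at least 10 counts in every library, the mouse number as replicate block, each mouse left out, a prior count of 0.5 and windows of 5 and 10 Mb.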

Additional observations from a re-analysis of the deposited data

Results flagged for a closer look

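In 3 of 9 groups of 7 mice with any spread, the mouse at one end lay farther from its neighbour than Dixon's 95% limit for 7 values allows, where chance alone gives about 1 in 20 groups. WT mouse 1 had 0.52 CPM of Serpina3f (11 counts), whereas the next WT mouse had 0.0583 CPM, a gap of 0.888 of the range. Mouse 6 labelled LPAR2-/- had 4.36 CPM of Serpina3f (73 counts), with 3.23 CPM in the next mouse and a gap of 0.613. Mouse 1 labelled LPAR2-/- had the lowest Serpina3m with 5.03 CPM (98 counts), with 6.68 CPM in the next mouse and a gap of 0.606. This mouse also had the lowest Serpina3n of its group, at 128 CPM. None of the 3 values changed whether the groups overlapped.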

How the results depend on the processing

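The log2 fold changes of Serpina3f, Serpina3h and Serpina3n kept their direction under all alternatives that could be fitted, and moved by less than the spread between mice except for Serpina3f without WT mouse 1. With 1 mouse left out they were 4.55 to 6.26 for Serpina3f, 2.59 to 3.07 for Serpina3h and 0.78 to 0.94 for Serpina3n, and the log2 bound of Serpina3m was 5.39 to 5.49. Serpina3g went from −0.35 without WT mouse 5 to 0.12 without WT mouse 7. A prior count of 0.5 moved the difference of mean log2 CPM of Serpina3f to 5.4 from 4.27 and of Serpina3m to 8.02 from 6.04, by the construction of log values at 0. With at least 10 counts in every library only Serpina3n of the members was left.

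Over all genes, 494 were higher and 515 lower, 616 and 377 with the upper quartile, and 275 to 660 and 292 to 725 with 1 mouse left out, the lowest without WT mouse 2 and the highest without WT mouse 1. The higher and lower genes also fell to 305 and 306 without mouse 1 labelled LPAR2-/- and to 298 each without WT mouse 5, and the lower ones to 336 without mouse 5 labelled LPAR2-/-, 308 without WT mouse 4 and 324 without WT mouse 6. DESeq2 over all mice called 674 genes higher and 724 lower (8.6% of its genes). By it, 3 proteases (Htra1 lower), 1 serpin of other clades, 4 reactive astrocyte genes and 2 acute phase regulators passed. By edgeR with 1 mouse left out, 0 to 2 serpins of other clades, 0 to 3 reactive astrocyte genes and 0 to 2 acute phase regulators passed. In the same fits 2 to 3 proteases and 1 to 2 neighbours of the cluster passed. By edgeR over all mice, 6 neighbours passed in the window of 10 Mb. With the replicate block (the mouse number as a term), 314 genes were higher and 272 lower and 1 reactive astrocyte gene passed, H2-D1, while Serpina3n was at 0.87, Serpina3f at 4.83, Serpina3h at 2.72 and Serpina3g at 0.02. The numbers do not pair the mice: same-numbered mice correlated between −0.33 and 0.31 after removal of genotype means, with 3 of 7 above 0.1. The cause of these changes was not tested. No marker list passed with a prior count of 0.5 or with any 1 mouse left out, the alternatives run for these lists. Depth limits Serpina3h and the WT level of Serpina3f, where a few counts decide the value.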

Other observations

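Lcn2, which codes for lipocalin 2, a secreted protein of the acute phase and of reactive astrocytes, was on the list but did not pass the filter, and is named after its values were seen. It had 176 and 411 counts in mice 3 and 4 labelled LPAR2-/- and between 0 and 4 in the other 5, and 440 and 234 counts in WT mice 1 and 7 and between 2 and 11 in the other 5. Mice with high Lcn2 were thus found in both groups. WT mice 1 and 7 had 81.4 and 118 CPM of Serpina3n in a WT range of 62.1 to 118, and mice 3 and 4 labelled LPAR2-/- had 150 and 155 CPM in a range of 128 to 172. WT mouse 1 was also the WT mouse with 11 counts of Serpina3f, and WT mice 1, 2 and 7 had the most Serpina3h of the WT group.

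For Serpina3g and Serpina3h, which were too low in some mice for the rule applied to Serpina3n, the genes most like them were looked up after their values had been seen. For Serpina3g these were Slc25a35 (r = 0.93 over 14 mice after removal of genotype means), Nr3c2 (0.9), which codes for the mineralocorticoid receptor, and Crim1 (0.86). For Serpina3h they were Ankrd42 (0.92), Tnfrsf18 (0.9) and Uggt2 (0.89). They are the highest of 14081 and 14082 genes and are given as values.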
